A study of Mus musculus with 2 samples.

Results

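The TALE homeobox genes encode transcription factors whose DNA-binding homeodomain carries an extra loop, from which the class takes its name. The 9 genes described here were chosen by symbol from a count table of 46095 entries: the PBX genes Pbx2, Pbx3 and Pbx4, the MEIS genes Meis1, Meis2 and Meis3, the PKNOX genes Pknox1 and Pknox2, and Tgif1. RNA was sequenced from mouse acute myeloid leukaemia cells that carry Mac1 and KIT and that the labels call leukemia-initiating cells. The sort was made from bone marrow, in the strain C57BL/6 at an age of 8 weeks. There was 1 library of genotype wild type, here WT, and 1 of genotype P2x1-KO, here P2X1-KO. The protocol text also calls these groups P2X1-Scr and P2X1-KD, so knockout and knockdown wording stand side by side. The sources used here do not give the oncogene that drives the leukaemia, the number of animals behind a library or the way the receptor was lost. With 1 library per group no difference has a replicate check, no p-value was computed, and every interval covers counting error only.

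PBX proteins bind DNA together with HOX proteins and with MEIS or PKNOX proteins. MEIS proteins hold PBX partners in the nucleus and add activating surface to the complex, and PKNOX proteins (also called PREP) compete for the same PBX partner. In myeloid leukaemia with high HOXA genes, MEIS1 and PBX3 are known as cofactors of HOXA9. TGIF1 is the more distant relative. It is a repressor that binds SMAD proteins and recruits corepressors.

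The shared homeobox is shown first, since it defines the class and since similar sequences can exchange reads. In GENCODE M21 transcripts, an 84-base stretch was found in each of the 9 members. It was searched by its ends, which are printed in capitals. These are codons for proline or alanine, tyrosine and proline in the extra loop, and codons for tryptophan, phenylalanine, any residue and asparagine in the recognition helix. The 6 members with a level high enough to compare are printed.
Pbx3: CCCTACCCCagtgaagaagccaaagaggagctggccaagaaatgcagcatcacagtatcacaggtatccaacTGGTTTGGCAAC
Pbx4: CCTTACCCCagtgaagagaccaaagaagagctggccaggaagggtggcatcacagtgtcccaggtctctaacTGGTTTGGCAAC
Meis1: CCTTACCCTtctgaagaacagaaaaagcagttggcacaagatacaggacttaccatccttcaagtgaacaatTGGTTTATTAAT
Meis3: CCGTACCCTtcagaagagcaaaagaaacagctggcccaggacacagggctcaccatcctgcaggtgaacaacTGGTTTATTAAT
Pknox1: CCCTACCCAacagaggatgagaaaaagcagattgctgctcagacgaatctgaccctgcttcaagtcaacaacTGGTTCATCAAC
Tgif1: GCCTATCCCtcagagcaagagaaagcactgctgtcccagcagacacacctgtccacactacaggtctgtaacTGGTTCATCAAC

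Within a subfamily the stretches were alike but not near-identical. Pbx3 and Pbx4 shared 71 of 84 bases (84.5%), and Meis1 and Meis3 shared 69 (82.1%). Across subfamilies the match was lower, at 47 bases (56.0%) between Pbx3 and Meis1 and 57 (67.9%) between Meis1 and Pknox1. Tgif1 shared 55 bases (65.5%) with Pknox1 and 48 (57.1%) with Pbx3. How many reads could map to more than 1 member was not tested.

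The libraries held 14658620 counts (WT) and 9447894 counts (P2X1-KO). Levels are given as CPM, counts put on 1 common library size after TMM (trimmed mean of M values) adjustment. A fold is the ratio of CPM in P2X1-KO to CPM in WT, and its exact 95% interval comes from the binomial distribution of the 2 counts. P2rx1, the gene for the ATP-gated channel P2X1, had 27 counts (1.73 CPM) in the WT-labelled library and 45 counts (5.07 CPM) in the P2X1-KO-labelled library. It was therefore not lower where the label says it was lost, so each direction below is one between libraries so labelled. Transcripts of the sort markers were found in both, Kit at 13.3 and 19.9 CPM and Itgam at 307 and 504 CPM. Markers of other cells also differed. Summed levels were 1.92 against 203 CPM for 6 stromal genes, 0.898 against 150 CPM for 5 eosinophil and mast cell genes, 72.9 against 258 CPM for 4 neutrophil genes and 37.6 against 179 CPM for 4 macrophage genes, each higher in the P2X1-KO-labelled library. Of the stromal list, 3 genes were detected in each library. In the P2X1-KO-labelled library these were collagen genes alone, while Lepr, Cxcl12 and Pdgfra were at 0. Lepr, Cxcl12 and the macrophage gene Mrc1 went the other way, detected in the WT-labelled library and at 0 in the other. Endothelial genes summed to 12.5 and 43.0 CPM. The erythroid, megakaryocyte, B cell, and T and NK cell lists reached at most 4.62 CPM in either library. The part of such cells in the differences below was not tested, and in bulk RNA fewer cells of a type cannot be told apart from less RNA per cell.

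Of the 9 members, 6 averaged 1 CPM or more in the pair of libraries, the level used for comparison. Pbx3 was the 1 member at least 2-fold lower in the P2X1-KO-labelled library, against 14% of the 13382 genes at that level. Meis3 was the 1 member at least 2-fold higher, against 15.5% of those genes. Meis1, Pbx4, Pknox1 and Tgif1 lay within 2-fold. The whole interval was beyond 2-fold for both Pbx3, against 7.75% of genes in that direction, and Meis3, against 10.2%. A count of 1 in 6 is near these shares and says nothing particular about the family. The median log2 difference of the 6 was 0.43, beside -0.059 over all genes at that level.

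**Figure D1:**
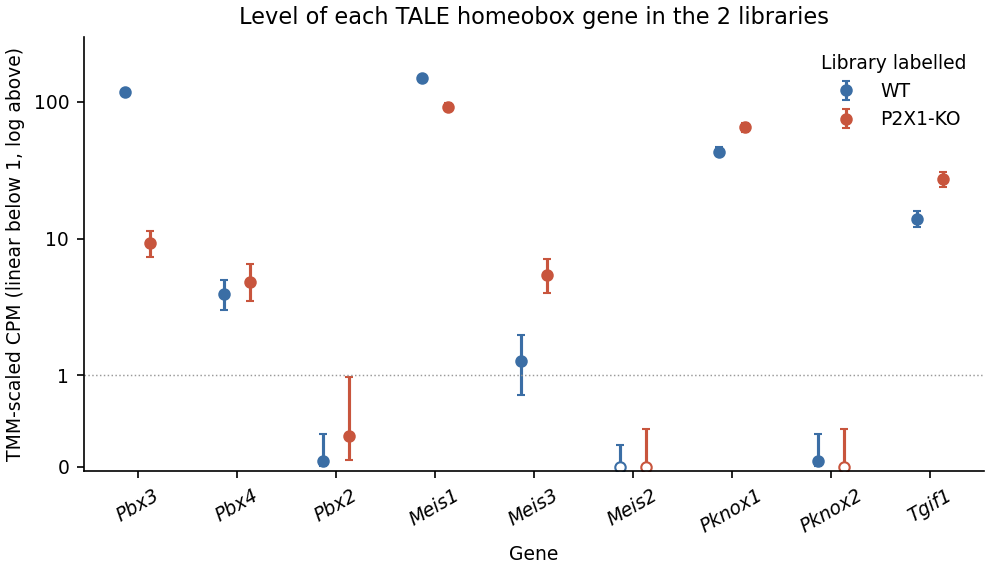
TMM-scaled level (CPM, linear below 1 and logarithmic above) of the 9 genes in the WT-labelled library (blue) and the P2X1-KO-labelled library (red), with exact 95% Poisson intervals as bars and open circles for a count of 0. Pbx3 stands at 118 and 9.23 CPM, while Pbx2, Meis2 and Pknox2 lie under 1 CPM in both libraries.

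Pbx3, the PBX gene best known from HOXA-driven leukaemia, had 1835 counts (118 CPM) in the WT-labelled library and 82 counts (9.23 CPM) in the P2X1-KO-labelled library. It lies at chr2:34171457-34373142 (minus strand, build mm10). It was 12.7-fold lower, with an interval of 10.2 to 16.1. Among the 13382 genes, 86 (0.643%) had a lower log2 difference than its -3.60. By level in the 2 libraries, the 3 genes nearest to Pbx3 were Smoc1, which encodes a secreted matrix-associated protein, Mylk, the myosin light chain kinase gene, and Ces1d, a carboxylesterase gene. Predicted genes, entries named by clone, accession or date, and the genes not reported here were left out of this ranking. Smoc1 had 110 and 8.56 CPM, at a distance of 0.14 log2 units, and Mylk (0.46) and Ces1d (0.59) were 8.21-fold and 7.06-fold lower. The libraries give each gene only a pair of values, so such likeness is a description of level.

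Pbx4, a PBX gene known mainly from testis, did not share this difference. The gene, at chr8:69832491-69872292 (plus strand), had 61 counts (3.91 CPM) in the WT-labelled library and 43 counts (4.84 CPM) in the other. Its fold of 1.24 had an interval of 0.817 to 1.86, which holds no change, and its log2 difference of 0.28 became -0.022 after the correction for exon length and GC content described below. The ratio of Pbx4 to Pbx3 counts, which needs no library scaling, went from 0.0332 in the WT-labelled library to 0.524 in the other. This was a 15.8-fold shift (9.77 to 25.2). Ratios of counts, here and below, still hold any difference tied to exon length or GC content.

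Pbx2, a PBX gene with broad expression in most tissues, was listed at 1 count in the WT-labelled library and 3 counts in the P2X1-KO-labelled library. Its neighbours were low too. Pbx2 lies in the major histocompatibility complex at chr17:34591266-34597400 (plus strand). Of 12 protein-coding genes within 100 kb, 6 had 0 counts in both libraries, and the highest of them, Atf6b, had 41 counts over both. Csnk2b, Bag6 and Prrc2a, which most cells use and which lie 519 to 552 kb away, were also listed at 0 in both libraries. So were Gpsm3 and Rnf5, which lie nearer. Agpat1 and Brd2 had 5 and 33 counts in the WT-labelled library and 2 and 5 in the other. These named genes were chosen after their values were seen. The median over the 113 protein-coding genes within 1000 kb was 3 counts, beside 50 counts over all 20612 matched protein-coding genes. Of the 113, 40.7% had 0 counts in both libraries, against 33.4% of all matched genes, and the highest, Hnrnpm, had 9106 counts. Such windows differed between members, with a median of 784 counts over 65 neighbours of Pbx4 and of 0 over 41 neighbours of Pknox2. Of those 41, 68.3% had 0 counts in both libraries, a larger part than around Pbx2. The reason for the low counts of Pbx2 and its neighbours was not tested. The counts of Pbx2 are not read here as its level in these cells, and no fold is given for it.

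Meis1, the MEIS gene that cooperates with HOXA9 in myeloid leukaemia, was abundant in both libraries. It had 2337 counts (150 CPM) in the WT-labelled library and 820 counts (92.3 CPM) in the P2X1-KO-labelled library. It was 1.62-fold lower, with an interval of 1.5 to 1.76, and 21.1% of genes had a lower log2 difference than its -0.70. The gene lies at chr11:18879817-19018985 (minus strand). Long transcripts were lower as a class in the P2X1-KO-labelled library. The median log2 difference was 0.68 over the shortest of 20 bins of exon length and -0.41 over the bin from 9495 to 11920 bases that holds Meis1, whose exons cover 10532 bases. The medians by exon length and then by GC content were subtracted, and the overall median was kept. The log2 difference of Meis1 was then -0.22, or 1.16-fold lower. The same correction left Pbx3 at 10.5-fold lower.

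Pbx3 and Meis1 can also be compared without library scaling, by ratios that carry no length or GC correction. For each Meis1 count there were 0.785 Pbx3 counts in the WT-labelled library and 0.1 in the P2X1-KO-labelled library. This ratio was 7.85-fold lower (6.19 to 10.1). Set against Hoxa9, Pbx3 was 11.1-fold lower (8.80 to 14.0) and Meis1 1.41-fold lower (1.28 to 1.55).

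**Figure D2:**
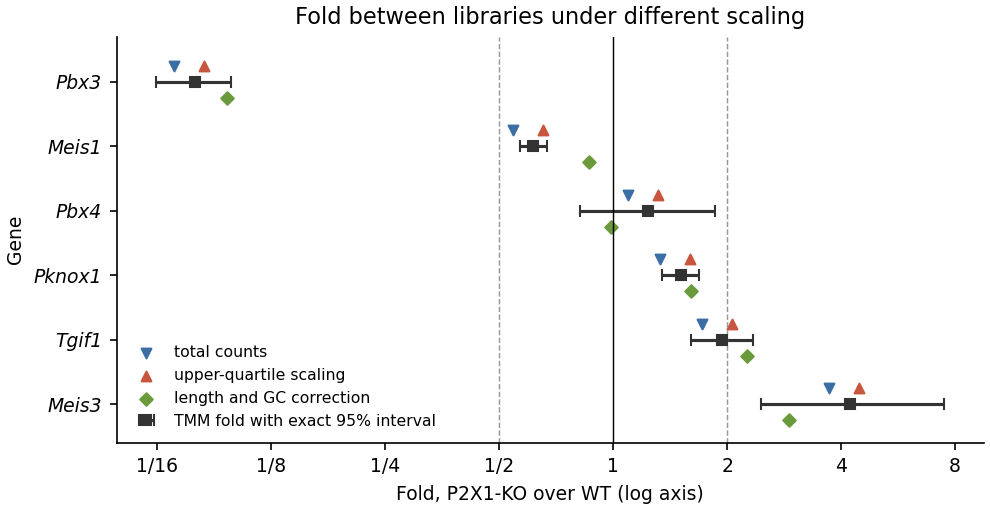
Fold of the 6 members averaging 1 CPM or more (P2X1-KO over WT, logarithmic axis) with TMM scaling (squares, exact 95% intervals), total counts, upper-quartile scaling and the length and GC correction, with dashed lines at 2-fold. Pbx3 stays far below the lower line under each of these, Meis1 moves towards 1 with the length and GC correction, and Tgif1 crosses the upper line with upper-quartile scaling and with that correction.

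Meis3, a less studied MEIS gene, was low, with 20 counts (1.28 CPM) in the WT-labelled library and 48 counts (5.40 CPM) in the P2X1-KO-labelled library. It was 4.21-fold higher, with an interval of 2.45 to 7.49, and 6.22% of genes had a higher log2 difference. The gene lies at chr7:16175090-16186504 (plus strand). With the length and GC correction its log2 difference was 1.54 instead of 1.73, beside -0.22 for Meis1. The difference between Meis3 and Meis1 was also seen in the uncorrected ratio of counts, which was 6.84-fold higher (3.95 to 12.2) in the P2X1-KO-labelled library. Even there 0.0585 Meis3 counts stood for each Meis1 count, and the MEIS total was 151 and 97.7 CPM. Meis2, at chr2:115863064-116065839 (minus strand) and known from limb, heart and brain development, had 0 counts in both libraries. A floor of 3 counts allows up to 0.192 CPM in the WT-labelled library and 0.338 CPM in the other.

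Pknox1, the broadly expressed PREP gene, was higher in the P2X1-KO-labelled library. It had 674 counts (43.2 CPM) in the WT-labelled library and 579 counts (65.2 CPM) in the P2X1-KO-labelled library, a fold of 1.51 (1.35 to 1.69). This lay within 2-fold, and 24.1% of genes had a higher log2 difference than its 0.59. The gene lies at chr17:31564734-31607693 (plus strand). Relative to Pknox1, Pbx3 counts were 19.2-fold lower (14.9 to 24.9) and Meis1 counts 2.45-fold lower (2.13 to 2.81) in the P2X1-KO-labelled library. The ratio of Pbx4 to Pknox1 counts was 1.22-fold lower, with an interval of 0.798 to 1.87 that holds no change. Pknox2, the paralog of Pknox1, at chr9:36890982-37147407 (minus strand), had 1 count in the WT-labelled library and 0 in the other, which gives no usable fold.

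Tgif1, the SMAD-binding repressor gene, was close to the 2-fold line. It had 219 counts (14.0 CPM) in the WT-labelled library and 242 counts (27.2 CPM) in the P2X1-KO-labelled library. The fold of 1.94 had an interval of 1.61 to 2.34, which holds 2-fold, and 15.4% of genes had a higher log2 difference. It lies at chr17:70844205-70853546 (minus strand). Relative to Pknox1 it was 1.29-fold higher (1.03 to 1.60).

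**Figure D3:**
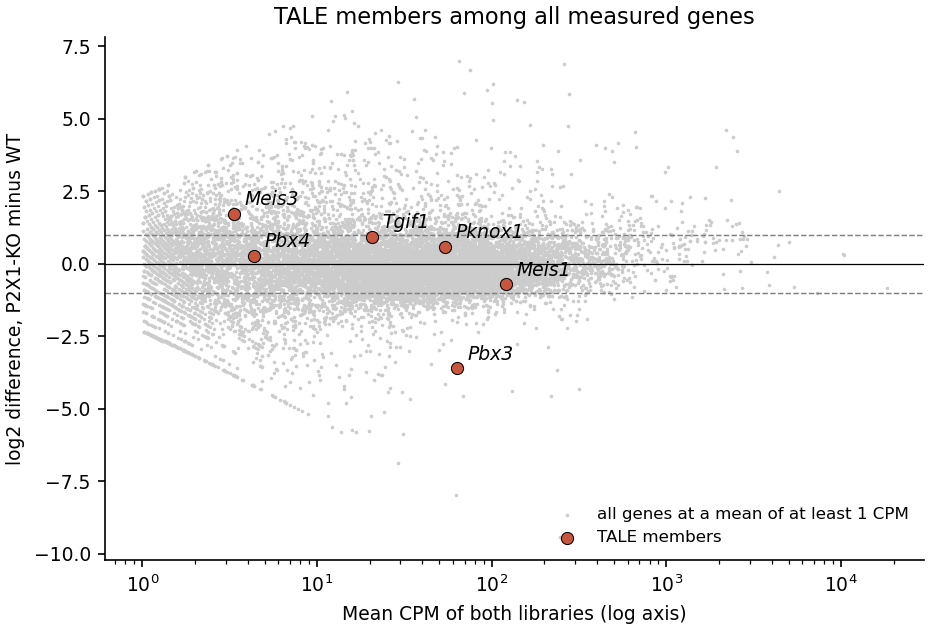
log2 difference (P2X1-KO minus WT, of CPM plus 0.5) against mean CPM (logarithmic axis) for the 13382 genes at a mean of at least 1 CPM (grey) and the 6 members (red), with dashed lines at 2-fold. Pbx3, at -3.60, lies at the lower edge of genes of its level, whereas Meis1, Pbx4, Pknox1 and Tgif1 lie inside the main cloud.

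Per length of exon, the family had a different make-up in each library. Levels between genes are compared here as CPM per kilobase of all annotated exons, which understates a gene that uses few of them. These levels carry no correction for the difference between libraries tied to exon length and GC content. In the WT-labelled library, Pbx3 was highest at 19.3 CPM per kb, followed by Meis1 at 14.2, Pknox1 at 6.24, Tgif1 at 2.50, Pbx4 at 1.76 and Meis3 at 0.404. Of these neighbours only Tgif1 and Pbx4 had overlapping counting intervals. In the P2X1-KO-labelled library, Pknox1 at 9.40 and Meis1 at 8.77 CPM per kb led, with overlapping intervals, and Tgif1 followed at 4.84. The order ended with Pbx4 at 2.18, Meis3 at 1.70 and Pbx3 at 1.51, whose intervals also overlapped one another. By point value Pbx3 thus went from the first to the last place among the 6, with its order against Pbx4 and Meis3 unresolved.

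The summed level takes Pbx2 at its listed counts, which are not read here as its level, so sums and shares are not taken as those of the whole family. As shares of this sum per kb, Pbx3 made up 43.4% in the WT-labelled library and 5.30% in the P2X1-KO-labelled library. Meis1 was almost level in share, at 32.0% and 30.8%, though its own level was 14.2 and 8.77 CPM per kb. A share moves with the rest of the sum, and these shares carry no length or GC correction. That correction put Meis1 at 1.16-fold lower instead of 1.62-fold. The share of Pknox1 was 14.0% and 33.0%, and that of Tgif1 5.62% and 17.0%. The sum itself was 44.4 and 28.5 CPM per kb, a smaller drop than that of Pbx3 alone.

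**Figure D4:**
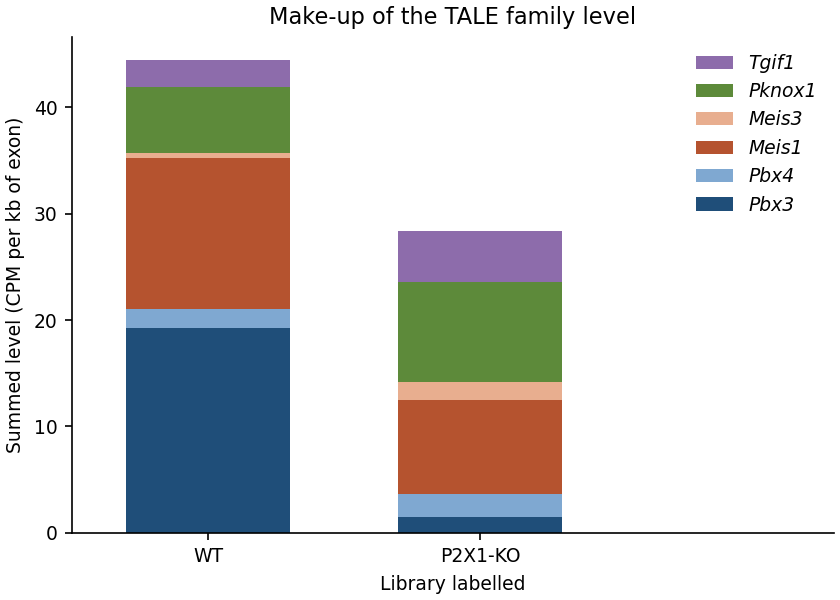
Summed level (CPM per kb of exon) of the 6 members averaging 1 CPM or more in the WT-labelled library and the P2X1-KO-labelled library, stacked by gene and without error bars. The dark blue block of Pbx3 shrinks from 19.3 to 1.51, and those of Pknox1 and Tgif1 are larger in the P2X1-KO-labelled library.

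Reads from overlapping genes could touch some members, because no strand setting is given. In GENCODE M21 the exons of Meis1 share 896 bases (8.51% of its exon length) with the antisense gene Gm16140 and 1029 bases (9.77%) with Gm37818 on its own strand. Pknox1 shares 155 bases (2.24%) with an antisense gene. Pbx2 shares 227 bases (6.24%) with Gpsm3 on its own strand, and Gpsm3 had 0 counts in both libraries. No exon base of Pbx3, Pbx4, Meis3 or Tgif1 is shared.

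Among TALE genes outside the 9, the Iroquois genes and Mkx were read from a list of the wider class. Irx5, an Iroquois gene known from heart and retina development, had 538 counts (34.5 CPM) in the WT-labelled library and 40 counts (4.50 CPM) in the P2X1-KO-labelled library, 7.66-fold lower (5.55 to 10.8). It was the 1 such gene at a mean of at least 1 CPM. Irx1, Irx2, Irx3, Irx4 and Irx6 had 0 counts in both libraries, and Mkx, the mohawk gene of tendon, had 4 and 0 counts.

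HOX genes, the DNA-binding partners of PBX, MEIS and PKNOX proteins, were mainly of the HOXA cluster. Summed HOXA levels were 716 CPM in the WT-labelled library and 575 CPM in the other, with 10 of 11 genes detected in each, while HOXB genes summed to 8.27 and 5.29 CPM. Of 12 HOX genes averaging 1 CPM or more, 2 were at least 2-fold lower, 1 at least 2-fold higher and 9 within 2-fold, with a median log2 difference of -0.13. These are 16.7% lower and 8.33% higher, beside 14% and 15.5% of all genes at that level. Hoxa11, an abdominal-type HOXA gene, was 2.37-fold lower (1.93 to 2.93), and Hoxb13, a posterior gene of the HOXB cluster, had 39 and 0 counts, at least 7.41-fold lower if the 0 is set to 3 counts. Hoxa7 was 1.70-fold lower (1.55 to 1.87), Hoxa2 2.73-fold higher (1.85 to 4.06) and Hoxa3 1.37-fold higher (1.19 to 1.57). Hoxa10 stood at 75.2 and 75.7 CPM. Of the 10 HOXA genes at that level, Hoxa2 and Hoxa11 were past 2-fold and none reached 3-fold by point value. The interval of Hoxa2 holds 3-fold.

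Genes known from work on HOXA9 and MEIS1 leukaemia lay in both directions. Of 17 at that level, 4 were higher by 2-fold or more in the P2X1-KO-labelled library, 2 lower by as much and 11 within 2-fold (median log2 difference 0.19). That is 23.5% higher and 11.8% lower, against 15.5% and 14% of all genes. Those lower by the most were Sox4, a SOX transcription factor gene, at 15.1 and 6.08 CPM (2.49-fold, 1.85 to 3.41), and Jmjd1c, encoding a jumonji-domain protein, at 178 and 80.4 CPM (2.21-fold, 2.04 to 2.41). Runx2 was 1.98-fold lower. In the other direction Id2, an inhibitor of basic helix-loop-helix factors, stood at 33.3 and 339 CPM, a fold of 10.2 (9.28 to 11.2). Erg at 16.9-fold (11.4 to 26.0) and Bcl2 at 14.3-fold (10.2 to 20.6) had larger folds, from 28 and 38 counts in the WT-labelled library.

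Of 14 listed chromatin factors that act upstream of HOXA genes and MEIS1, 13 averaged 1 CPM or more. By TMM point value 0 of these 13 were past 2-fold in either direction, where 14% of all genes were lower and 15.5% higher. Their median log2 difference was -0.58, and -0.27 with the length and GC correction. Dot1l, the H3K79 methyltransferase gene, was lower by 1.98-fold (1.81 to 2.17), and Mllt10, encoding its partner AF10, by 1.94-fold (1.76 to 2.14). Both intervals hold 2-fold. The acetyltransferase gene Kat7 was lower by 1.78-fold. Counts past 2-fold in the lists were not repeated with other library scaling, and total counts moved the median of all genes from -0.059 to -0.23. Men1, the menin gene, had 16 and 13 counts, too few to place.

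Of the 9 cofactors of PBX and MEIS proteins that are reported here, which is not the whole list, 2 were at least 2-fold lower and 7 within 2-fold (median -0.54, or -0.36 with the correction). The 22.2% lower and 0% higher stand beside 14% and 15.5% of all genes. Crebbp, the acetyltransferase CBP that MEIS complexes recruit, was at 85.8 and 39.3 CPM (2.18-fold lower, 1.94 to 2.46), and the CREB coactivator genes Crtc3 and Crtc1 were 2.01-fold and 1.92-fold lower. Pbxip1, whose product binds PBX proteins and hinders their DNA binding, was at 110 and 156 CPM (1.41-fold higher, 1.32 to 1.52). Crtc2 was nearly level at 81.5 and 87.4 CPM.

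For the partners of TGIF1, 9 of 11 lay within 2-fold, with 1 lower and 1 higher (median -0.24), or 9.09% each way beside 14% lower and 15.5% higher of all genes. Ctbp2, a corepressor gene, was 2.18-fold lower (1.97 to 2.41), and Rxra, the retinoid X receptor gene whose response elements TGIF1 can bind, was 3.09-fold higher (2.56 to 3.74). Among the SMAD-linked genes, Ski was 1.75-fold lower and Smad2 1.34-fold lower, whereas Smad4 was 1.23-fold higher (1.09 to 1.39). Hdac2, a deacetylase gene, had a fold of 1.05.

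**Figure D5:**
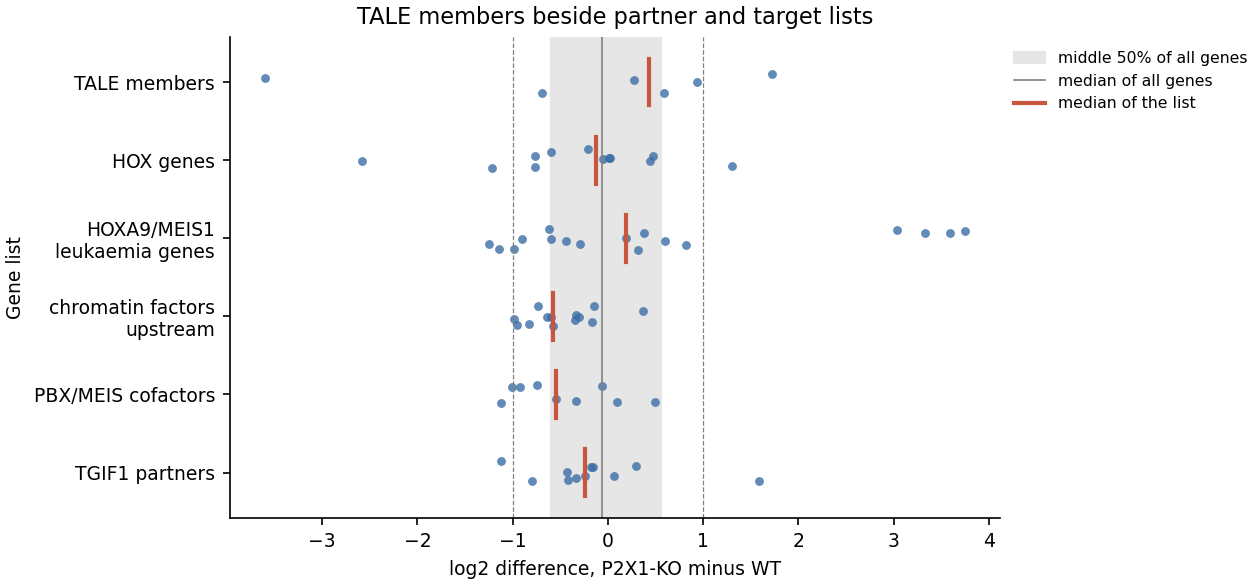
log2 difference (P2X1-KO minus WT) of each gene at a mean of at least 1 CPM in the TALE family and in 5 lists of partners and targets (points), with the list median (red), the middle 50% of all genes (grey band) and dashed lines at 2-fold. Pbx3 is the lowest point of all, and list medians run from -0.58 for the upstream chromatin factors to 0.43 for the TALE members.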

How the data were processed

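RNA of 2 libraries was compared, 1 for each genotype. The authors deposited raw read counts per gene symbol. The submitters' processing notes name HISAT2 2.0.4 and build mm10. The sources used here do not give the counting tool, annotation or strand setting. Of the entries, 27 carry dates in place of symbols and stayed in the totals.

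Counts were scaled by TMM (edgeR 4.0.16, R 4.3.3) to an effective 15591519 (WT) and 8882591 (P2X1-KO) counts. The log2 difference uses CPM plus 0.5. Folds use CPM with exact 95% Clopper-Pearson intervals (scipy 1.17.1), except corrected folds, which are taken from the log2 difference. Ratios between members have exact conditional intervals. Exon length and GC content came from GENCODE M21 and were known for 94.7% of genes averaging 1 CPM or more. The interval and fold calculation was tested on simulated Poisson counts, which hold counting error only. That checks the calculation and says nothing about variation between animals or libraries.

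The members and lists were chosen with earlier results of these data known. Named genes are the 9 members, P2rx1, Kit, Itgam, up to 3 genes per list and direction by the interval bound nearest to no change, and the 3 genes nearest to Pbx3. Hoxa9, the neighbours of Pbx2, the marker genes at 0 and the other Iroquois genes and Mkx fall outside this rule and were named after their values were seen. Over all lists, 3 genes are not reported here and were left out of the counts and medians of their lists. Alternatives were total counts, upper-quartile and DESeq2 1.42.0 scaling, totals without the 20 most abundant genes, other pseudocounts and filters, and the length and GC correction in 20 bins.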

Additional observations from a re-analysis of the deposited data

How the results depend on the processing

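No paired analysis was possible because each group has 1 library, and for the same reason no library could be left out. Of 79 alternative values, 58 stayed within counting error or within 1.5 times of a count. Among these, Pbx4 turned from 0.28 to -0.022 with the length and GC correction. Pbx3 ranged from -3.80 to -3.39. With total counts, the log2 difference of Meis1 was -0.87 and that of Pknox1 0.41. With totals without the 20 most abundant genes, these were -0.89 and 0.39. The length and GC correction put Meis1 at -0.22. The count of members at least 2-fold higher was 2 with upper-quartile scaling, 2 with the length and GC correction (Tgif1 joining Meis3 in both), 2 with all members having a count (Pbx2 joining) and 0 at a mean of at least 5 CPM, which leaves out Meis3. The count of members lower was 2 when any count sufficed, Pknox2 joining with 1 count.

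Over all genes, 1110 were lower and 1271 higher at a mean of at least 5 CPM, 6484 and 3604 when any count sufficed, and 1037 and 1369 by the whole interval, against 1870 and 2074. Of the genes past 2-fold, 52.6% were higher with TMM and 40.9% with total counts, which moved the median of all genes from -0.059 to -0.23. The corrected list medians, chosen after the data were seen, were -0.30 for HOX genes, 0.064 for HOXA9 and MEIS1 leukaemia genes, -0.27 for the upstream chromatin factors, -0.36 for the PBX and MEIS cofactors and -0.053 for the TGIF1 partners. Among the 6 members compared, Meis3 and Pbx4 had the fewest counts, and Pbx2, Meis2 and Pknox2 had too few to compare.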
